A study of Mus musculus with 4 samples.

Results

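The nuclear-encoded genes of the respiratory chain were described in naive mouse microglia, the resident macrophages of the brain. Members were all gene rows whose symbol begins with Nduf, Uqcr, Atp5 or Cox followed by a digit, together with Sdha, Sdhb, Sdhc and Sdhd. The rule uses names only, and it found 124 of the 56832 gene rows. Of these, 77 were structural subunits of the 5 complexes, 17 were assembly factors, 8 were tissue-restricted isoforms, 1 was the supercomplex factor gene Cox7a2l and 21 were pseudogenes or gene copies. The cells came from the brains of female C57BL/6 mice that had no transplant and no other intervention. They were sorted as CD11b-positive cells with low to intermediate CD45 and sequenced as 4 libraries of 1 group, replicates 1 to 4. Graft-derived brain myeloid cells, the other arm of the study, were not analysed here, which leaves no comparison of groups. Nothing in the labels ties the libraries to separate animals, so p-values measure only the spread between these libraries, which may be technical.

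The respiratory chain sits in the inner mitochondrial membrane. Complex I takes electrons from NADH and complex II takes them from succinate, and coenzyme Q carries them to complex III. Cytochrome c then carries them to complex IV, which reduces oxygen, and complex V, the ATP synthase, uses the resulting proton gradient to make ATP. Most subunits are encoded in the nucleus and imported, while a small core set of subunits of complexes I, III, IV and V is encoded in mitochondrial DNA. Resting microglia are known to use oxidative phosphorylation, and activated microglia to lean more on glycolysis. Transcription factors known to bind promoters of respiratory genes include NRF1 and the ETS family factor GABP.

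Promoter stretches from RefSeq on build GRCm38.p6 are shown for genes whose levels are compared below. Atp5g1 and Atp5g2 encode the same c subunit of the ATP synthase, Sdha encodes the flavoprotein of complex II, Cox6a1 is a common isoform of complex IV and Cox8b is its heart and skeletal muscle isoform. Each line gives the 250 bases before the annotated start, 5′ to 3′ on the strand of the gene. Capitals mark the NRF1 core, searched as GCGC, any base and TGCGC on either strand.
Atp5g1 (chr11:96075632-96075881, minus strand): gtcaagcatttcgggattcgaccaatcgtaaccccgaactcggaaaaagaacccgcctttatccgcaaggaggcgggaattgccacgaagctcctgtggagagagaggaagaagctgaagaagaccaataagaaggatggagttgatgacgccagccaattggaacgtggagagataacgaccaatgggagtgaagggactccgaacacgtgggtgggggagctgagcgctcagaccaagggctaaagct
Atp5g2 (chr15:102671048-102671297, minus strand): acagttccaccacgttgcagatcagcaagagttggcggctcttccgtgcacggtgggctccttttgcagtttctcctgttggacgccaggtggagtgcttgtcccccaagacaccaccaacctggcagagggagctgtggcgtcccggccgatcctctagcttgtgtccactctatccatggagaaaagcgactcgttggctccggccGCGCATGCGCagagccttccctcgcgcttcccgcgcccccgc
Sdha (chr13:74350241-74350490, minus strand): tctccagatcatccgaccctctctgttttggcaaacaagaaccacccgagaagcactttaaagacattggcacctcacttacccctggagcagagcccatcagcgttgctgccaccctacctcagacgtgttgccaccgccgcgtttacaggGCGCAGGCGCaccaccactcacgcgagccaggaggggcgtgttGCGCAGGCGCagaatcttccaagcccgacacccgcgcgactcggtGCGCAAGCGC
Cox6a1 (chr5:115348959-115349208, minus strand): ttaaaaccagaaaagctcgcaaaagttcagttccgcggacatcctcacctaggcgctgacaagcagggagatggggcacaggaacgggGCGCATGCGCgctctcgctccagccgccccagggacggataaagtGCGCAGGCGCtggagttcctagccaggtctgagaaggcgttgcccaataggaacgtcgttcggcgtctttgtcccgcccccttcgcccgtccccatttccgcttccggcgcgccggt
Cox8b (chr7:140900447-140900696, minus strand): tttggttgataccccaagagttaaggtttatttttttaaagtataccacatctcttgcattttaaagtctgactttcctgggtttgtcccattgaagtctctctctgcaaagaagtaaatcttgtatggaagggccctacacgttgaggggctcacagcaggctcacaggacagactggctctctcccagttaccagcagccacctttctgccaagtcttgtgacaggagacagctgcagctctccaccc
The Atp5g2 stretch held 1 NRF1 core, which began 42 bases before the start, whereas the Atp5g1 stretch held none. The Sdha stretch held 3 cores, which began 98, 55 and 10 bases before the start. In the Cox6a1 stretch 2 cores began 162 and 117 bases before the start, and the Cox8b stretch held none. These are matches of letters, not measured binding sites. RefSeq windows of 300 bases, which run from 250 before to 50 after the start, were matched by symbol for 84 of the 124 members. An NRF1 core lay in the window of 17 of 65 matched structural subunits (26.2%) and 2 of 14 assembly factors (14.3%), against 13.2% of 6606 matched genes among those tested for variability. Over all 27025 genes of the promoter table the share was 5.19%. The ETS core CCGGAAGT, also searched on either strand, lay in 5 of 65 structural subunits (7.69%) and 4 of 14 assembly factors (28.6%), against 10.8% of the same tested genes and 4.31% of the whole table. Neither core occurred in the windows of the 4 tissue-restricted isoforms that were matched.

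The libraries held 20606776, 22576720, 23292655 and 20360121 reads assigned to genes in replicates 1 to 4. The microglial label was checked against 12 marker genes, each present in every library at 1 CPM or more, where CPM is a count scaled to the same assigned total in each library, with summed levels from 40203 to 69945 CPM. Summed markers of other cells ranged from 276 to 2403 CPM for 8 neutrophil genes, 486 to 1819 CPM for 7 oligodendrocyte genes, 449 to 2050 CPM for 5 choroid plexus genes, of which Ttr made most, 240 to 504 CPM for 7 astrocyte genes, and 77.3 to 135 CPM for 6 endothelial genes. Those of 5 B cell genes ranged from 19.1 to 86.1 CPM, of 5 red blood cell genes from 17.1 to 76.9 CPM and of 7 neuronal genes from 12.4 to 36.7 CPM. The B cell gene Ms4a1 had no count in any library. Immediate early genes, which rise within minutes of cell stimulation, took 5.87% and 5.05% of counts in replicates 2 and 3, and 0.499% and 0.548% in replicates 1 and 4. The neutrophil sum was highest in replicate 4, at 2403 CPM, and next in replicate 1, at 1499 CPM.

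All 77 structural subunit genes were expressed, each at 10 CPM or more in every library. Among all 124 members, 99 reached 1 CPM in every library, against 14.8% of all gene rows, and 12 reached 100 CPM in every library, against 2.01% of all gene rows. They included Sdha, Sdhb, Uqcrc1, Cox4i1, Cox6a1, Cox6b1, Cox7a2l, Atp5a1, Atp5b, Atp5c1 and Atp5pb. Of the 17 assembly factors 16 reached 1 CPM in every library, and of the 8 tissue-restricted isoforms only Cox6a2 did. Among pseudogenes and copies the number was 4 of 21, and their mean levels ended at 3.35 CPM. Reads that align to several places were given to no gene (3.46% to 4.03% of listed reads), so levels of pseudogenes and of parents that share sequence with them are uncertain.

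**Figure D1:**
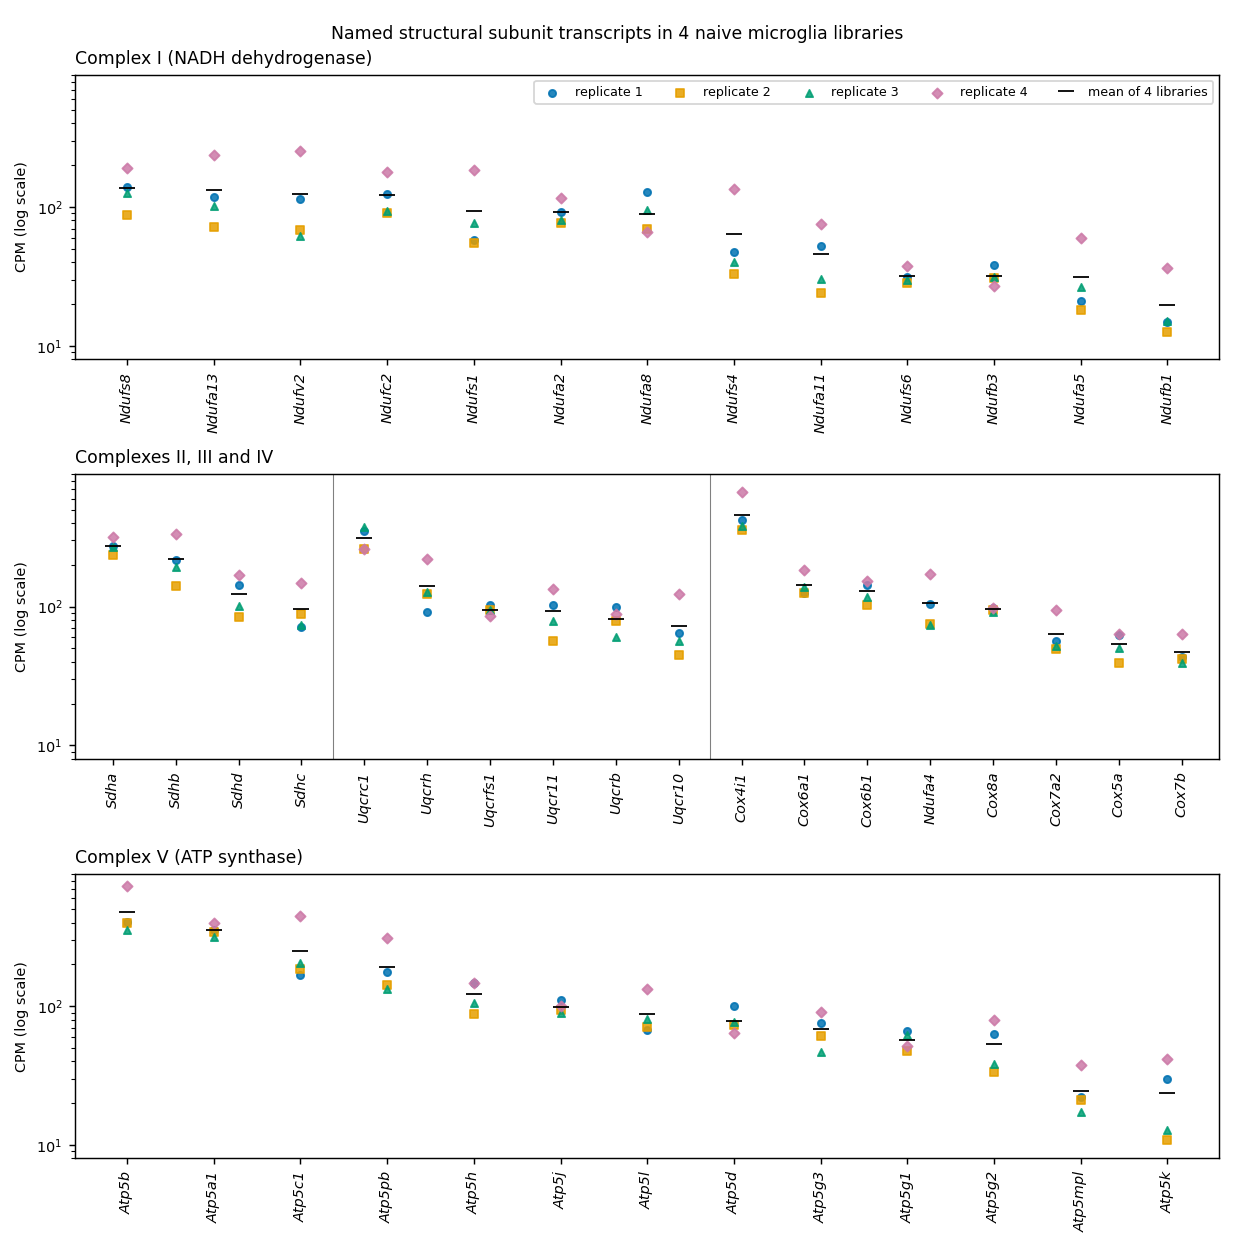
Level of each structural subunit gene named in the text in CPM on a log axis, with 1 symbol for each of the 4 libraries and a bar at their mean, grouped by complex and sorted by mean. Every point lies above 10 CPM, replicate 4 is often the highest point, and the points of Cox8a lie almost on top of each other.

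Together the members took 0.876% of counts in replicate 1 (exact 95% interval 0.872 to 0.880), 0.675% in replicate 2 (0.672 to 0.679), 0.752% in replicate 3 (0.749 to 0.756) and 1.19% in replicate 4 (1.19 to 1.20), a mean of 0.874% ± 0.228 (SD, n = 4). The intervals cover counting error only. Replicate 4 had the highest share and replicate 2 the lowest, a ratio of 1.77. The structural subunits of complex I, the NADH dehydrogenase, took 0.298%, 0.197%, 0.240% and 0.415% of counts in replicates 1 to 4. Those of complex V took 0.209%, 0.178%, 0.178% and 0.313%. Replicate 4 was also the highest library for complexes II, III and IV, so the shares of all 5 complexes were highest in the same library. Complex IV ranged from 0.105% to 0.179%, complex III from 0.0803% to 0.115%, and complex II, which has only 4 subunits, from 0.0548% to 0.0968%. Cox7a2l, a gene studied for a role in linking complexes III and IV into supercomplexes, moved less, with 0.0228%, 0.0260%, 0.0257% and 0.0278% of counts. Whether its protein does so in these cells was not measured. The 17 assembly factors took 0.0434%, 0.0309%, 0.0348% and 0.0425%, with replicate 1 above replicate 4. When the immediate early genes were left out of the total, the members took 0.881%, 0.717%, 0.792% and 1.20% of counts, in the same order of libraries.

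**Figure D2:**
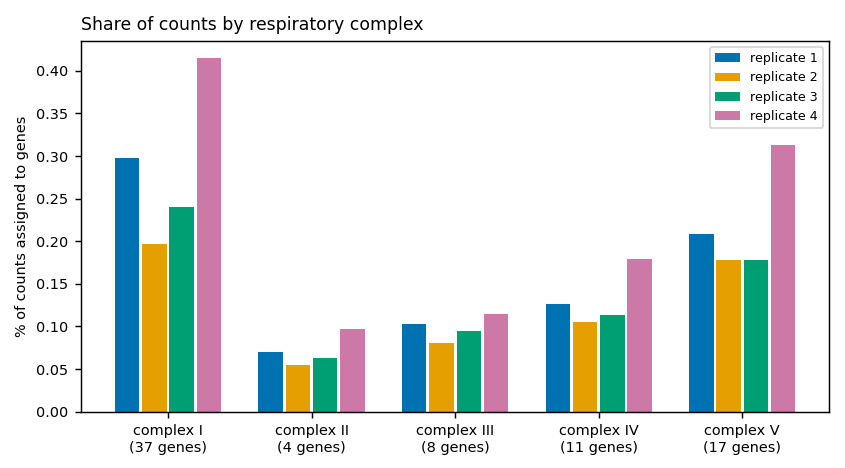
Percent of the counts assigned to genes that fell on the structural subunits of each complex, 1 bar for each library. Replicate 4 is the highest bar in all 5 complexes, at 0.415% in complex I and 0.0968% in complex II.

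Levels of different genes were compared per kilobase of exon (union of annotated exons). On that scale the median subunit stood at 80.5 ± 19.8 CPM per kb in complex II, 80.0 ± 5.69 in complex III, 69.4 ± 21.6 in complex IV, 44.5 ± 14.4 in complex I and 38.1 ± 12.1 in complex V (SD over libraries, n = 4 each). Complexes II, III and IV overlapped within these spreads, as did complexes I and V. Complex IV also overlapped complexes I and V. The spreads carry shifts that the complexes share within a library. Within libraries complex II stood above complex IV and complex I above complex V in 4 of 4, complex III stood above complex IV in 3 of 4, and complexes II and III were each higher in 2 of 4. These differences were not tested. The order of complexes depended on the length used. Per kilobase of the longest coding transcript the medians were 97.7 CPM in complex II, 139 in complex III, 108 in complex IV, 66.3 in complex I and 106 in complex V, so that complex V moved level with complex IV.

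In complex II all 4 subunits were well expressed. Sdha, the flavoprotein that oxidises succinate, stood at 274, 236, 268 and 318 CPM in replicates 1 to 4. Sdhb, its iron-sulfur partner, had 215, 140, 192 and 333 CPM. The membrane anchors Sdhc and Sdhd had 71.9, 89.0, 73.7 and 148 CPM, and 143, 83.5, 102 and 169 CPM. As a ratio of highest to lowest library Sdha varied least of the 4, at 1.35, and each gene was highest in replicate 4. Per kilobase of exon Sdhd stood at 101 ± 31.5, Sdhb at 98.2 ± 36.4, Sdha at 66.4 ± 8.21 and Sdhc at 29.5 ± 11.1 CPM per kb (SD, n = 4), so Sdhc stood below the other 3 by more than these spreads.

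Complex I had 37 measured structural subunits, with means per kilobase from 6.11 to 161 CPM per kb. Ndufc2 and Ndufa2, accessory subunits, led with 161 ± 54.5 and 160 ± 31.3 CPM per kb. Next came Ndufs8, a core iron-sulfur subunit, at 105 ± 32.4, and Ndufa13 (also known as Grim19) at 105 ± 57.6 CPM per kb (SD, n = 4). Per kilobase of the longest coding transcript Ndufc2 again led the complex, and of the other 3 only Ndufa2 remained among its 4 highest. Ndufa13 had 118, 71.8, 101 and 236 CPM, so its wide spread came with a high value in replicate 4. The lowest subunits by CPM were the accessory genes Ndufb1, with 14.9, 12.5, 15.1 and 36.6 CPM, and Ndufa5, with 20.9, 18.1, 26.7 and 59.5 CPM. Both were again highest in replicate 4, and Ndufb1 in the other libraries spanned only 12.5 to 15.1 CPM. Among the core subunits Ndufv2, which carries an iron-sulfur cluster near the NADH site, had 115, 68.7, 62.0 and 251 CPM, and Ndufs1, a large iron-sulfur core subunit, had 57.8, 55.5, 77.3 and 186 CPM. Ndufs4, an accessory subunit whose loss causes Leigh syndrome, had 47.1, 33.0, 40.4 and 135 CPM. These 3 genes, chosen after their values were seen, are among 6 complex I subunits whose highest library was 3 or more times the lowest; the others were Ndufa11, Ndufa13 and Ndufa5. The ratio of highest to lowest library ranged from 1.33 to 4.08 over the 37 subunits, with a median of 2.10. Its median over all 9075 tested genes was 2.43, and the share of these genes with a ratio of 3 or more was not measured.

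Complex III had 8 structural subunits. Uqcr11 (146 ± 52.3 CPM per kb), Uqcr10 (124 ± 59.8), Uqcrh, the hinge protein (113 ± 44.5), and Uqcrb (93.5 ± 19.4; SD, n = 4) stood highest per kilobase, with overlapping spreads. All 4 encode small accessory subunits. Per kilobase of the longest coding transcript the core subunit gene Uqcrc1 (188 CPM) stood above Uqcr10 (167 CPM) and Uqcrb (153 CPM). Uqcrc1, a large core subunit, had 349, 259, 372 and 261 CPM, with its highest value in replicate 3, unlike most members. Uqcrfs1, the Rieske iron-sulfur protein, had 102, 95.0, 94.0 and 85.1 CPM. Its values lay close together, and replicate 4 was the lowest. Uqcr10 had 64.6, 45.1, 56.4 and 123 CPM and followed the more common order. Cyc1, the cytochrome c1 subunit, is not matched by the symbol rule and had 137, 68.5, 101 and 133 CPM.

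Cox4i1, the common isoform of complex IV subunit 4, was the highest structural subunit per kilobase under both length definitions, at 295 ± 94.6 CPM per kb of exon (SD, n = 4). Its levels were 419, 355, 383 and 674 CPM in replicates 1 to 4. Cox6a1 followed at 204 ± 38.1 and Cox6b1 at 182 ± 31.5 CPM per kb, which do not differ beyond their spreads. Cox8a, the common subunit 8 isoform, stood at 155 ± 4.54 CPM per kb and had 97.9, 94.9, 92.0 and 97.8 CPM. The 4 libraries therefore differed by 1.06-fold at most in Cox8a, the narrowest range of any structural subunit. The lowest of the 11 by CPM were Cox7b, an X-linked gene, with 43.7, 42.1, 39.03 and 63.0 CPM, and Cox5a, with 62.7, 39.02, 50.7 and 63.9 CPM. Complex IV was the least variable complex in this respect: 2 of its 11 subunits had a ratio of highest to lowest library of 2 or more, beside 42 of all 77 structural subunits. No test of that difference was made. The median of this ratio was 2.04 for the structural subunits and 2.43 for all 9075 tested genes. How many of all tested genes had a ratio of 2 or more was not measured.

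In the ATP synthase subunits of the catalytic F1 part led per kilobase of union exon. Atp5c1, the central stalk gamma subunit, stood at 131 ± 68.2, Atp5a1 (alpha) at 112 ± 11.0, Atp5b (beta, the catalytic subunit) at 112 ± 41.5 and Atp5h, a peripheral stalk subunit, at 83.5 ± 20.3 CPM per kb (SD, n = 4). Per kilobase of the longest coding transcript Atp5h (179 CPM) and the membrane subunit gene Atp5l (162 CPM) stood above Atp5c1 (145 CPM) and Atp5a1 (132 CPM), and Atp5b (247 CPM) was highest. Atp5a1 had 114, 109, 100 and 127 CPM per kb in replicates 1 to 4 and Atp5b had 95.8, 94.6, 83.3 and 174 CPM per kb. The order of beta, which forms the catalytic head with as many alpha subunits, against alpha depended on the length used. Per kilobase of union exon beta lay below alpha in replicates 1 to 3 and above it in replicate 4. In CPM, with no length correction, Atp5b had 406, 401, 353 and 735 against 356, 341, 314 and 397 for Atp5a1, higher in all 4 libraries, as it was on average per kilobase of the longest coding transcript. Atp5c1 had 168, 186, 205 and 445 CPM, with replicate 4 far above the others. The lowest subunits by CPM were Atp5k, the e subunit, with 29.9, 10.9, 12.8 and 41.4 CPM, and Atp5mpl, a small membrane subunit, with 22.2, 21.0, 17.3 and 37.4 CPM. In Atp5k replicates 1 and 4 stood apart from replicates 2 and 3.

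Assembly factors, which build the complexes without being part of them, stood below the structural subunits. The median structural subunit had 48.9, 34.7, 39.9 and 66.3 CPM per kb in replicates 1 to 4, and the median assembly factor had 8.44, 5.39, 4.54 and 8.15 CPM per kb. The log2 ratio of the medians was 2.53, 2.69, 3.14 and 3.02, a mean of 2.85 ± 0.28 (SD, n = 4). The sign was the same in all libraries; without any length correction the mean was 2.20, and per kilobase of the longest coding transcript it was 3.15. Cox14, which acts in early complex IV assembly, was the highest assembly factor at 78.9 ± 19.6 CPM per kb, within the range of the structural subunits. Ndufaf8, a complex I assembly factor, followed at 31.7 ± 11.3 CPM per kb. Cox15, which takes part in heme A synthesis, was the lowest at 1.43 ± 0.845 CPM per kb, with 12.6, 3.06, 4.94 and 7.47 CPM. Ndufaf2, a late assembly factor of complex I, had 344, 220, 180 and 2 counts in replicates 1 to 4, so it was near 0 only in replicate 4. Of 92 members with 100 or more counts in each of the other 3 libraries, Ndufaf2 was the only one at 3 counts or fewer in replicate 4, where 8.62% of all such genes (728 of 8444) were. In replicates 1, 2 and 3 no member was, and the shares of all such genes were 1.63%, 0.0286% and 0.0286%. These thresholds were chosen after the values were seen.

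Of 102 members tested, none varied between libraries beyond the trend for genes of the same level (edgeR quasi-likelihood dispersion, upper-tail F test, Benjamini-Hochberg adjusted p under 0.05), against 0% of the 9075 genes tested. At an unadjusted p under 0.05 no member passed, against 4.30% of all tested genes, and DESeq2 gave no member and no other gene as a dispersion outlier. The filter asked for about 10 counts in every library, so members near 0 in any library were not tested. The dispersion of the members relative to the trend had a median of -0.52 on the log2 scale, beside -0.08 for all tested genes, and 37 of 102 lay above the trend, beside 48.3% of all tested genes. The median coefficient of variation of CPM was 33.8% for the members and 38.6% for all tested genes. By complex the median log2 dispersion over the trend was -0.19 in complex I, 0.08 in complex II, -0.14 in complex III, -1.76 in complex IV and -0.36 in complex V, and it was -1.49 for the 16 assembly factors tested. Complex IV and the assembly factors had the lowest medians; the difference was not tested. The 3 members with the lowest dispersion were Cox8a (-7.02), Ndufaf3, a complex I assembly factor with 29.1, 25.1, 27.9 and 26.3 CPM (-5.39), and Ndufs6, an accessory zinc-binding subunit of complex I with 31.5, 28.3, 29.8 and 37.6 CPM (-4.90). The highest was Ndufv2, at 2.31 with an unadjusted edgeR p of 0.071. The gap to all tested genes depended on the libraries used. The median was -1.46 for the members and -0.31 for all tested genes without replicate 4, and -1.26 and -0.36 without replicate 2. Without replicate 3 the medians were -0.78 and -0.34. Without replicate 1 they were -0.16 and -0.10, with 44.8% of members and 48.4% of all tested genes above the trend.

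**Figure D3:**
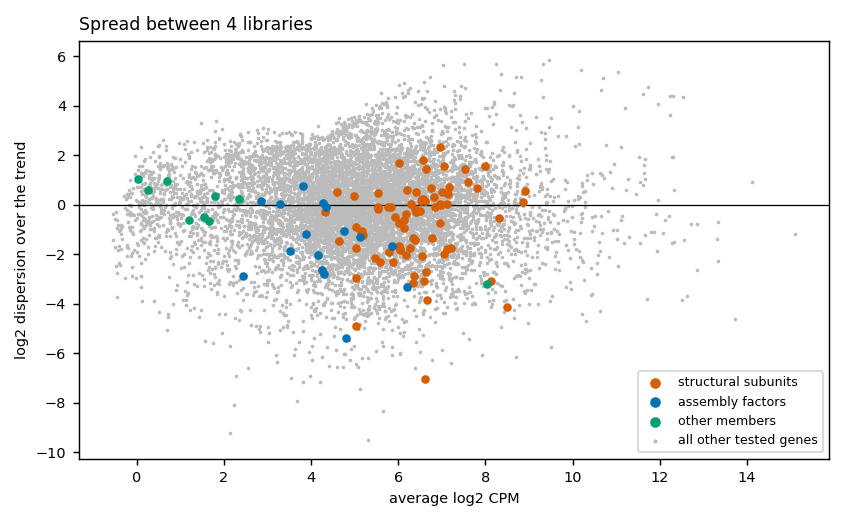
Log2 ratio of the quasi-likelihood dispersion to its trend against average log2 CPM, 1 point a gene, for structural subunits, assembly factors and other members over all other tested genes in grey. Members lie on both sides of the line at 0, with Cox8a lowest at -7.02 and Ndufv2 highest at 2.31.

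The members followed a common order of libraries. Replicate 4 was the highest library for 76 of 102 tested members, against 40.3% of all tested genes, and replicate 1 for 21, against 25.3%. Replicate 2 was the lowest library for 65 members, against 24.2% of all tested genes, and replicate 3 for 23, against 19.6%. Replicate 4 lay above replicate 2 in 95 of 102 members and in 54.9% of all tested genes, with a median log2 difference of 0.88 for the members and 0.14 for all tested genes. On TMM-scaled values these differences were 0.79 and 0.06, and replicate 4 was highest for 74 members. Structural subunits followed this order in 62 of 77 genes with replicate 4 highest. The assembly factors were mixed, with replicates 1 and 4 each highest for 6 of 16. Exceptions among the subunits included Ndufa8 (128, 69.9, 94.5 and 65.9 CPM), Ndufb3 (38.3, 30.7, 31.4 and 26.8 CPM), Atp5d, the ATP synthase delta subunit (99.6, 73.5, 77.0 and 64.2 CPM), and Uqcrfs1, the 4 subunits that were lowest in replicate 4. That library was the lowest for 30.7% of all tested genes. The libraries kept similar ranks of subunits: Spearman's rho across the 77 genes, which are not independent replicates, was 0.95 between replicates 3 and 2 and 0.82 between replicates 4 and 2.

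Short transcripts were also often highest in replicate 4. The median longest coding transcript was 983 bases for the tested members and 2929 bases for all tested genes. Among genes with a transcript of up to 750 bases, replicate 4 was highest for 28 of 33 members (84.8%) and for 76.0% of 171 other genes. Above that and up to 1000 bases the shares were 80.0% of 15 members and 63.9% of 294 other genes, and in the next bin, up to 1500 bases, 63.2% of 19 and 51.5% of 809. In the bin up to 2500 bases they were 73.3% of 15 members and 43.1% of 1834 other genes, and in the bin up to 4000 bases 6 of 10 and 36.3% of 2273. Over 4000 bases none of 3 members and 26.5% of 2461 other genes were highest in replicate 4. In the 5 bins up to 4000 bases the share was higher for the members than for other genes, and in both it was larger for the shortest than for the longest transcripts. Up to 750 bases replicate 2 was lowest for 72.7% of members and 39.8% of other genes, and over 4000 bases for 3 of 3 members and 13.3% of other genes. Bins were chosen after the values were seen and hold few members. They leave out tested genes without a coding transcript length. Over all bins, replicate 4 was highest for 72.6% of 95 members and 38.3% of 7842 other genes. Immediate early genes were low, and neutrophil markers high, in replicates 1 and 4. Summed microglial markers were also higher there, with 69945, 42402, 40203 and 67579 CPM in replicates 1 to 4. Among them Sall1, Sparc, Cx3cr1 and Csf1r were lowest in replicate 4. Summed oligodendrocyte genes were lower there, with 486, 1789, 1819 and 587 CPM, although Cnp and Mag were higher in replicate 4 than in replicate 3. Replicate 4 was the highest library for 76 of 102 members (74.5%), against 40.3% of all tested genes. Replicate 1 was highest for 21 members (20.6%), below the 25.3% of all tested genes. The choroid plexus sum was also highest in replicate 4, with 449, 920, 925 and 2050 CPM in replicates 1 to 4. Ttr made most of that sum, and Ttr and Folr1 were highest in replicate 4. The other listed choroid plexus genes, Kl, Clic6 and Prlr, had 1, 0 and 0 counts there and were highest in replicate 2 or 3. The part of these values, and of transcript length, in the order was not tested.

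**Figure D4:**
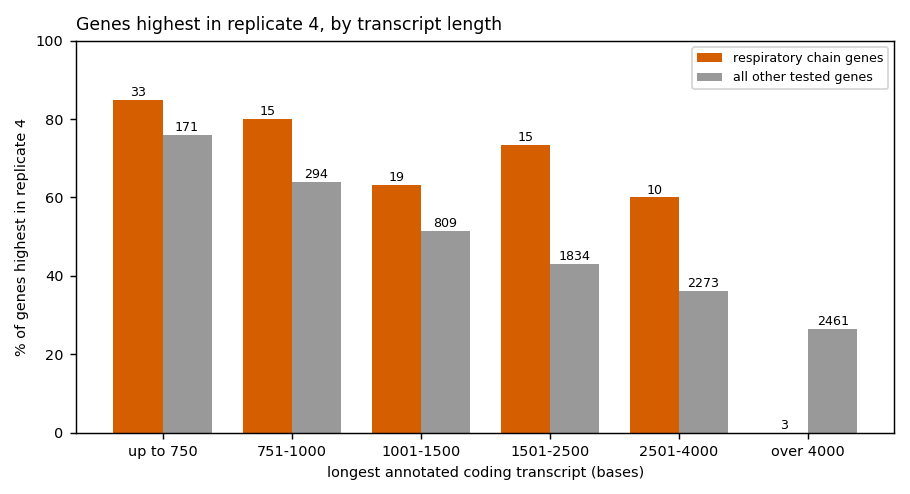
Percent of genes whose highest CPM was in replicate 4, by length of the longest annotated coding transcript, for the respiratory chain genes and all other tested genes, with the number of genes above each bar. Tested genes without such a length are left out. The shortest bin stands at 84.8% of 33 members and 76.0% of 171 other genes, the longest at 0 of 3 members and 26.5% of 2461 other genes.

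Summed counts of the mitochondrially encoded subunits followed another order. The 77 nuclear structural subunits took 0.807%, 0.616%, 0.690% and 1.12% of counts in replicates 1 to 4, and the 13 mitochondrially encoded subunits took 0.251%, 0.548%, 0.632% and 0.277%. The log2 ratio of nuclear to mitochondrial counts was therefore 1.69 and 2.01 in replicates 1 and 4, and 0.17 and 0.13 in replicates 2 and 3. For complex I, with 37 nuclear and 7 mitochondrial genes, it was 1.97, 0.05, 0.40 and 2.25. In complex III, where Cytb is the only mitochondrial gene, the ratio was 0.17, -1.37, -1.57 and 0.43, so mitochondrial counts exceeded nuclear ones in replicates 2 and 3. In complex IV it was 0.66, -0.43, -0.51 and 0.84, and in complex V 6.62, 4.32, 4.35 and 6.33. Each complex showed higher ratios in replicates 1 and 4 than in replicates 2 and 3. The highest of the 13 were mt-Cytb of complex III (919, 2078, 2797 and 854 CPM), mt-Co1 of complex IV (768, 1334, 1519 and 952 CPM) and mt-Nd1 of complex I (394, 952, 901 and 495 CPM), each higher in replicates 2 and 3. An exception was mt-Nd3, with 4.71, 7.80, 4.64 and 9.38 CPM, which was highest in replicate 4. No gene of the mitochondrial list passed the variability test at an adjusted p of 0.05 in edgeR. Mean levels of the 13 genes differed widely, from 2.65 CPM for mt-Nd4l and 7.05 CPM for mt-Atp8 to 1662 CPM for mt-Cytb. Reads that align to several places were given to no gene, and their part in these levels and ratios was not tested. Counts from these libraries also depend on how much of each transcript the kit captures, so the ratio does not give the proportion of subunits.

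Common isoforms prevailed over tissue-restricted isoforms in every pair and every library. Log2 ratios within libraries were tested by flipping their signs, an exact permutation test with 2 sides. With 4 libraries the smallest exact p is 0.13, so no pair can pass 0.05, and 9 of 10 pairs tested gave that value (exact test, adjusted p 0.139 over the 10 pairs). Cox6a1 stood above Cox6a2, the heart and skeletal muscle isoform, by a mean log2 ratio of 4.99 ± 0.82 per kb (SD, n = 4). Cox6a1 had 126, 126, 139 and 183 CPM, and Cox6a2 had 8.40, 2.39, 2.88 and 5.94 CPM. Exons of Cox6a2 overlap those of Itgad on the opposite strand, and since the strand setting of the counting is not given in the sources used here, their reads cannot be told apart. Cox4i1 exceeded Cox4i2, an isoform best known from lung, by log2 ratios of 5.90, 9.82, 8.75 and 5.23 per kb. Cox4i2 had 73, 4, 10 and 185 counts, so replicates 1 and 4 made nearly all of it. Ndufa4l2, the hypoxia-inducible relative of the complex IV subunit Ndufa4, had counts of 0, 89, 80 and 0, and was thus seen only in replicates 2 and 3. Against it Ndufa4 (105, 74.7, 73.8 and 171 CPM) was 14.9-fold and 16.9-fold higher per kb in replicates 2 and 3, and at least 573-fold and 920-fold higher in replicates 1 and 4, at a floor of 3 counts per library. Mural cells of blood vessels are known to express Cox4i2 and Ndufa4l2. Summed levels of 9 mural genes, a list added after these values were seen, were 16.5, 117, 112 and 166 CPM, and 1 of 9 reached 1 CPM in every library. The 9 genes did not share an order of libraries. Rgs5 (3, 1345, 1235 and 1472 counts), Acta2 (2, 268, 346 and 581 counts), Higd1b and Vtn were highest in replicate 4, where Cox4i2 was also highest and Ndufa4l2 had no count. Kcnj8 (0, 81, 57 and 0 counts), Abcc9 (0, 51, 45 and 0 counts), Pdgfrb, Notch3 and Myh11 were highest in replicate 2 or 3, where Ndufa4l2 was seen, and had 1 count or none in replicates 1 and 4. The part of mural cells in these levels was not tested.

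The muscle isoform Cox8b had 0, 11, 16 and 140 counts, so that replicate 4 held most of it. Cox8a was 108-fold, 75.5-fold and 8.24-fold higher per kb in replicates 2, 3 and 4, and at least 391-fold higher in replicate 1. Cox7a2 (56.2, 49.5, 51.8 and 94.5 CPM) was set against the muscle isoform Cox7a1, which had 10, 9, 8 and 3 counts; the ratios per kb were 62.5, 66.7 and 80.5 in replicates 1 to 3, with no ratio given for the 3 counts of replicate 4. Cox7a2l, a relative of Cox7a2, exceeded Cox7a1 162-fold, 224-fold and 255-fold per kb in the same libraries. Cox6b1 (142, 103, 117 and 152 CPM) was 84.0-fold, 133-fold and 405-fold higher per kb than the testis isoform Cox6b2 in replicates 1 to 3, and at least 1613-fold higher in replicate 4, where Cox6b2 had no count. Its counts were 54, 27, 10 and 0. The testis isoforms Cox7b2 and Cox8c had no count in any library, which allows up to 0.147 CPM.

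**Figure D5:**
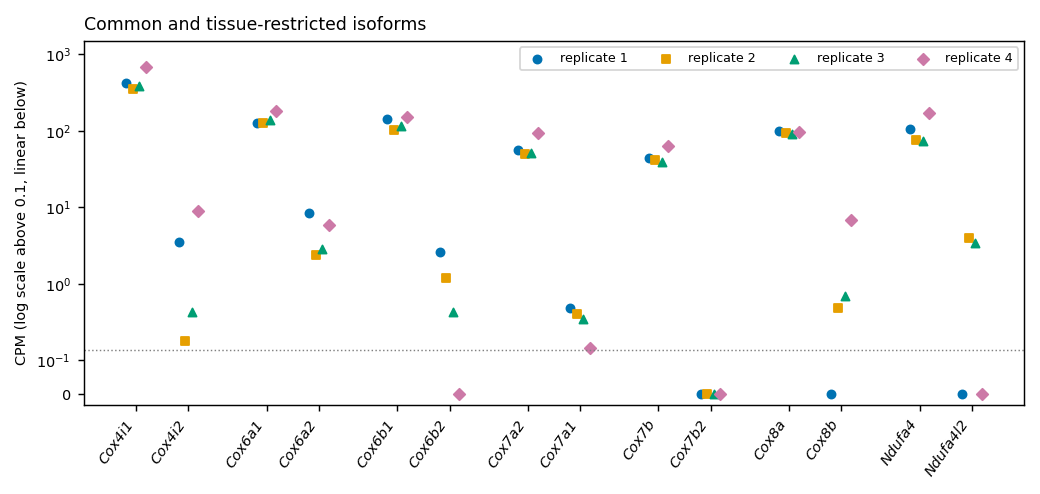
CPM of 7 common isoforms, each beside a tissue-restricted relative, 1 symbol for each library, on an axis that is logarithmic above 0.1 and linear below; the dotted line marks the mean level of 3 counts. All points of the common isoforms lie above 30 CPM and all points of the restricted isoforms below 10 CPM, with Ndufa4l2 at 0 in replicates 1 and 4 and Cox7b2 at 0 throughout.

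The c subunit of the ATP synthase, which forms the rotor ring, is encoded by 3 genes that give the same mature protein with different import sequences. Atp5g1 had 66.5, 47.3, 62.2 and 51.9 CPM. Atp5g2 had 62.6, 33.8, 38.2 and 79.2 CPM, and Atp5g3 had 75.9, 60.6, 46.9 and 90.8 CPM. All 3 genes were expressed, and Atp5g2 and Atp5g3 were highest in replicate 4 whereas Atp5g1 was highest in replicate 1. Per kilobase of exon Atp5g2 exceeded Atp5g1 by a mean log2 ratio of 1.39 ± 0.58 and Atp5g3 exceeded Atp5g1 by 1.41 ± 0.50 (SD, n = 4), in 4 of 4 libraries each (exact permutation p = 0.13, adjusted p = 0.139). Both ratios rest on the exon lengths used. Without length correction the mean log2 ratio of Atp5g2 over Atp5g1 was -0.17, and that of Atp5g3 over Atp5g1 was 0.24 (exact permutation p = 0.5), with replicate 3 at -0.41. Atp5g2 and Atp5g3 differed by -0.02 ± 0.30 (exact permutation p = 1), and without replicate 2 the mean was 0.12. Atp5g2 lay below Atp5g3 in 4 of 4 libraries without length correction, by a mean log2 ratio of -0.40, and per kilobase of the longest coding transcript, by -0.46 (exact permutation p = 0.13 in both).

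Other genes of the pathway were read from lists. Of 36 further assembly factors 29 reached 1 CPM in every library and Pet117 had no count; the highest by CPM were Coa3 (128, 55.3, 82.6 and 157 CPM), Coa5 (110, 52.6, 60.7 and 85.9 CPM) and Uqcc1 (64.9, 62.5, 65.3 and 82.0 CPM). Coa3 and Coa5 act in complex IV assembly and Uqcc1 in cytochrome b synthesis. Of 18 genes for mobile carriers and coenzyme Q synthesis 13 reached 1 CPM in every library, led by Cyc1, by Etfa, an electron transfer flavoprotein (70.2, 52.2, 81.9 and 102 CPM), and by Coq10b, a coenzyme Q chaperone (42.2, 101, 94.1 and 18.8 CPM). Coq10b ran against the order of the members, with replicates 2 and 3 highest. Cycs, cytochrome c itself, had 49.8, 37.2, 43.2 and 62.2 CPM. None of the 30 further assembly factors or the 13 carrier and coenzyme Q genes that were tested varied beyond the trend at an unadjusted edgeR p under 0.05, against 4.30% of all tested genes.

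Of 11 regulators of respiratory genes 5 reached 1 CPM in every library. Nrf1 had 68.1, 45.5, 31.9 and 43.4 CPM and Gabpb1, a GABP subunit, 49.9, 54.1, 63.7 and 30.4 CPM, neither of them highest in replicate 4. Gabpa, the DNA-binding GABP subunit, had 80.0, 60.1, 44.5 and 0.639 CPM. It was the 1 of 7 regulators tested with an unadjusted edgeR p under 0.05 (0.010), against 4.30% of all tested genes, and its adjusted p was 0.94. Its exons overlap those of the member Atp5j on the opposite strand. Yy1, another activator of respiratory genes, had 45.2, 27.4, 30.5 and 0.0982 CPM, so Gabpa and Yy1 were both near 0 in replicate 4. In that library 8.62% of all genes with 100 or more counts in each of the others fell to 3 counts or fewer. Yy1, with 2 counts, was among these genes, while Gabpa had 13 counts. Esrra (125, 237, 200 and 1 counts), Ppargc1b (128, 109, 8 and 0 counts) and Pprc1 (14.2, 26.5, 14.3 and 0.982 CPM) were also lowest in replicate 4, the lowest library for 30.7% of all tested genes. Tfam, which packages and transcribes mitochondrial DNA (20.1, 23.3, 14.7 and 24.1 CPM), and the mitochondrial transcription factor genes Tfb1m (2.47, 4.12, 7.68 and 13.8 CPM) and Tfb2m (8.25, 7.13, 4.29 and 21.1 CPM) were highest in replicate 4, as most members were. Ppargc1a, a coactivator of mitochondrial biogenesis, had 1, 121, 31 and 0 counts and was near 0 outside replicates 2 and 3.

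The 18 glycolysis genes took 0.425%, 0.433%, 0.493% and 0.371% of counts in replicates 1 to 4, a narrower range than that of the members, with replicate 4 the lowest rather than the highest. The highest by CPM were Ldhb, a lactate dehydrogenase subunit (1079, 820, 1137 and 855 CPM), Eno1, an enolase (817, 703, 817 and 673 CPM), and Aldoa, an aldolase (570, 604, 624 and 461 CPM). All 3 were highest in replicate 3. Of 15 tested, 1 gene, the hexokinase Hk2, passed an unadjusted edgeR p of 0.05 (0.046, adjusted p 0.94), beside 4.30% of all tested genes, with 174, 162, 167 and 36.3 CPM.

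Of the 121 members found in the annotation, 40 have exons that share positions with another annotated gene, mostly on the opposite strand, and reads there cannot be told apart without a stated strand setting. Among members named above, beside Cox6a2 and Atp5j, the partner gene lies on the opposite strand for the complex I genes Ndufa2, Ndufa11, Ndufa13, Ndufb1, Ndufs1 and Ndufs6, for Uqcrb, Cox4i1, Cox5a, Atp5a1, Atp5d, Atp5l and Atp5pb, and for the assembly factors Cox15, Ndufaf2 and Ndufaf3. Ndufa4l2 shares positions with Shmt2 on the opposite strand, and Atp5g2 with the microRNA gene Mir688 on the same strand.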

How the data were processed

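The measurements were RNA sequencing of sorted naive microglia in 4 libraries. The authors deposited raw read counts per gene symbol, 1 file a library, not normalised. STAR 2.7.10a, SAMtools 1.16.1, HTSeq 0.11.2 and the build GRCm39 are named per the submitters' processing notes; the gene annotation, strand setting and read filters of the counting are not stated (not given in the sources used here). Total RNA with an integrity number above 8 was amplified with a low-input kit, per the labels' protocols. Rows for reads without a gene held 19.9% to 22.7% of listed reads and stayed out of library sizes and tests.

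The members and lists were chosen with earlier results of these data known. Levels are CPM on assigned counts, and a count of 0 allows up to 3 counts, 0.129 to 0.147 CPM. Exon lengths came from GENCODE on GRCm38, with 121 of 124 members matched by symbol, and the longest coding transcript was an alternative added later. Variability was tested with edgeR 4.0.16 in R 4.3.3 (filterByExpr with a minimum count of 10, TMM scaling, a quasi-likelihood fit with an intercept only, an upper-tail F test against the trend, Benjamini-Hochberg over 9075 genes), with DESeq2 1.42.0 as an alternative. The fit was checked on simulated counts with less spread than these libraries, where it recovered 47% of genes changed 4-fold and 99% of those changed 16-fold. At the spread of these libraries its recovery was not measured. Isoform ratios used (count + 0.5) per kb and an exact permutation of signs. Other steps used Python 3.11.15, pandas 2.3.3, numpy 2.4.6, matplotlib 3.10.9 and scipy 1.17.1. Motifs were searched in RefSeq promoter windows of GRCm38.p6.

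Genes were named by a rule: all of complex II, the 4 highest per kb and 2 lowest by CPM of each other complex, all isoform pairs, the 2 highest and 2 lowest assembly factors, the 3 members of lowest dispersion, any that passed the variability test, and the 3 highest of each pathway list. Other genes named were chosen after their values were seen. Some member genes are counted in the totals but are not reported by name here.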

Additional observations from a re-analysis of the deposited data

Results flagged for a closer look

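In 5 of 62 sets of 4 library values looked at, 1 library lay far from the other 3 (the gap to the nearest value, over the range, above Dixon's 95% critical value); chance gives about 1 in 20 such sets. All 5 were high values of replicate 4, which was the highest library for 40.3% of all tested genes. How many of all tested genes this rule would flag was not measured. Atp5b, the catalytic beta subunit of the ATP synthase, had 735.3 CPM there and 353 to 406 CPM in the other libraries. Atp5c1, the gamma subunit, had 444.7 CPM there and 168 to 205 CPM elsewhere. The complex IV subunit Cox7a2 had 94.50 CPM there and 49.5 to 56.2 CPM elsewhere. Ndufb1, a complex I accessory subunit, had 36.64 CPM there and 12.5 to 15.1 CPM elsewhere. The muscle isoform Cox8b had 6.876 CPM there and 0 to 0.687 CPM elsewhere.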

How the results depend on the processing

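No member passed the variability test under any of the 9 other settings tried; at an unadjusted p under 0.05 the number was 0 to 1 when each library was left out in turn, the 1 being Cox8b without replicate 1. The median log2 dispersion of the members over the trend ranged from -1.46 (without replicate 4) to -0.16 (without replicate 1) and was -1.26 without replicate 2; for all tested genes it was -0.31, -0.10 and -0.36 in these settings. The share of counts held by the members was 1.33% when the 100 most abundant other genes were left out of the total. The log2 ratio of structural subunits to assembly factors was 2.20 without length correction and 3.15 per kilobase of the longest coding transcript, an alternative added after seeing the data. Without length correction Atp5g2 over Atp5g1 turned to -0.17, and Atp5g3 over Atp5g1 was 0.24. Atp5g2 over Atp5g3 ranged from -0.092 to 0.12 when each library was left out, with 0.12 without replicate 2, and was -0.40 without length correction and -0.46 per kilobase of the longest coding transcript. The causes of these shifts were not tested, beyond the lengths entering the ratios by construction. Of the other values recomputed, 105 for whole comparisons kept their direction and their side of the threshold. The 302 for single genes kept their side of the threshold, but not all kept their sign. Without replicate 4 the log2 dispersion over the trend went from 0.55 to -3.52 for Atp5b and from 1.55 to -1.34 for Atp5c1. With 4 libraries of 1 group, differences smaller than the spread between libraries, and any difference between animals, could not be resolved. No fit with replicate number as a block could be made, since the libraries form only 1 group; the isoform ratios were taken within libraries.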
